A study of Mus musculus with 2 samples.

Results

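The genes examined here are 10 genes that license and fire DNA replication origins: Mcm2, Mcm3, Mcm4, Mcm5, Mcm6, Mcm7, Mcm10, Cdt1, Gmnn and Cdc6. They were chosen by name and not by their values, although earlier results of these data were known. Each was found once among the 17408 genes of a single-cell expression table. The cells were mouse embryonic fibroblasts with STEMCCA, in which doxycycline switches on Pou5f1, Sox2, Klf4 and Myc together. They were collected unsorted at day 16 of reprogramming towards induced pluripotent stem cells, in mouse embryonic stem cell medium with ascorbic acid. Both libraries belonged to the same group, with no untreated or uninduced control. The study used more than 1 STEMCCA mouse system, and the labels do not say which system gave which library, nor whether the libraries came from separate cultures. The p-values below therefore measure only how alike a difference was in these 2 libraries, called replicate 1 and replicate 2. The spread between them may be technical, and its estimate for a gene draws on other genes as well.

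In G1 phase, the origin recognition complex, Cdc6 and Cdt1 load the ring of Mcm2 to Mcm7, the core of the replicative helicase, onto DNA, and an origin with loaded rings is said to be licensed. From S phase until mitosis, geminin, the product of Gmnn, binds Cdt1 and blocks further loading, and Mcm10 takes part in turning the loaded ring into an active helicase. Most of these genes are textbook targets of the E2F transcription factors, and pluripotent cells are known for a fast cycle with a short G1 phase. Their levels are given below over cell states and on either side of a gate on Mki67, a gene used as a marker of proliferating cells.

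RefSeq promoters, covering 250 bases before to 50 bases after a start site, were found for 8 of the 10 genes, Mcm4 and Gmnn being the others. They were searched on both strands for 4 spellings of an E2F motif, TTTCCCGC, TTTCGCGC, TTTGCCGC and TTTGGCGC. Matches were found in 6 of these 8 genes, namely Mcm3, Mcm5, Mcm6, Mcm7, Cdt1 and Cdc6, against 2.26% of 32851 mouse promoters of the same length and 4.18% of the 7053 promoters of genes tested below. The 8 genes had 9 promoters, and another promoter of Mcm7 held no match, whereas the background shares count promoters and not genes. Matches overlapped each other in Mcm6 and in Mcm5. The CHR letters TTTGAA were found in Mcm2, once, and in 17.9% of all promoters. The following promoters are shown because Mcm5 and Mcm6 are the genes whose shares of the helicase transcripts differed most between pluripotent-like and other cells, Cdt1 is the loading factor that geminin binds, and Mcm2 is a helicase gene with none of these E2F letters in its window. Capitals mark the E2F matches, the sequences run 5′ to 3′ on the strand of the gene, and coordinates are on GRCm38.p6.
Mcm5, chr8:75109259-75109558, plus strand: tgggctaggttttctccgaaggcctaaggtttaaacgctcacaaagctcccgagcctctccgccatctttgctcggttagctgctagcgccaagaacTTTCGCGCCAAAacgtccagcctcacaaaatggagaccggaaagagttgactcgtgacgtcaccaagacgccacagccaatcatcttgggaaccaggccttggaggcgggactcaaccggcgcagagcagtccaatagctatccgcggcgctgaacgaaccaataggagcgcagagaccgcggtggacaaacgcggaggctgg
Mcm6, chr1:128359656-128359955, minus strand: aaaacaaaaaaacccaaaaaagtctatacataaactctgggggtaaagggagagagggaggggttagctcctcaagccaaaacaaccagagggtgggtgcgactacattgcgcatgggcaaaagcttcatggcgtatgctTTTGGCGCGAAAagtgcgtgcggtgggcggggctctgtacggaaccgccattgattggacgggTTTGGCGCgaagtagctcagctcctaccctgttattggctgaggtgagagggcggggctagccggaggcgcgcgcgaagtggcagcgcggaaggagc
Cdt1, chr8:122567765-122568064, plus strand: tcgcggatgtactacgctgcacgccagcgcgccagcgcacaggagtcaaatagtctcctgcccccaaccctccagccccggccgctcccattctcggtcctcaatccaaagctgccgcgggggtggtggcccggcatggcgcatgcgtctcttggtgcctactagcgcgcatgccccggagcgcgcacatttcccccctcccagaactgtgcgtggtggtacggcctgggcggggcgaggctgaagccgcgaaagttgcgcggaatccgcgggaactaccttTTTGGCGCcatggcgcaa
Mcm2, chr6:88898731-88899030, minus strand: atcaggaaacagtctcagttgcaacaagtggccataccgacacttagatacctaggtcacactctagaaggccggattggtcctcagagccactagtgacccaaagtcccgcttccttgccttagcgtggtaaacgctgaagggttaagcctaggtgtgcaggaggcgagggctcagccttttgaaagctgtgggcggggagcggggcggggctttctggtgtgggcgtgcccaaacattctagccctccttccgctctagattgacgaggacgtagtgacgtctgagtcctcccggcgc
The Mcm6 window held 3 matches, the Mcm5 window 2 and the Cdt1 window 1. A match describes the letters of the window only, and binding of E2F was not measured in these cells.

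The table held 3109 cells in replicate 1 and 3914 in replicate 2, with 54145377 and 64654306 unique molecular identifiers (UMIs, 1 for each captured RNA molecule) and a median of 15625 and 14292 per cell. Levels are UMIs per 10000 of a cell, averaged over cells. The libraries shared 12 cell barcodes. Clustering, from which the 10 genes and Mki67 were withheld, gave 13 states with at least 30 cells in each library and 4 smaller ones. State 5 was called pluripotent-like because 11 of 12 pluripotency markers were raised at least 2-fold in it, led by Dppa5a and Utf1. It held 146 and 391 cells, and all remaining cells, 2963 and 3523, are called other cells. States 6 and 12 were S-phase-like, with 17 and 18 of 21 S phase markers raised, and state 0, unnamed, was led by the mitotic genes Cenpf, Cenpa and Ube2c. These 3 states were mixed, as 26 and 32 of 40 mitotic markers were also raised in states 6 and 12. State 0 had 39 of 40 mitotic and 15 of 21 S phase markers raised. In the pluripotent-like cells, 11 of these 21 S phase markers and 28 of 40 mitotic markers were raised as well. So were 9 of 11 epithelial and 4 of 5 trophoblast markers. No doublets were removed here.

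The helicase genes were high in 4 of the 13 states and low in the other 9. The summed level of Mcm2 to Mcm7 was 6.12 and 5.08 UMIs per 10000 in S-phase-like state 6 (replicates 1 and 2 throughout), 5.57 and 5.30 in the pluripotent-like cells, 4.58 and 4.48 in S-phase-like state 12, and 3.57 and 3.29 in state 0. State 6 and the pluripotent-like cells overlapped, whereas states 12 and 0 lay below both and apart from each other. State 8, led by Igfbpl1 and 2610528A11Rik, was next at 1.51 and 1.19, and state 9, led by Mmp11 and Isg15, was lowest at 0.621 and 0.616. From the highest to the lowest state the mean changed 9.05-fold, and 8 of the 12 neighbouring pairs in this order overlapped between libraries. These are descriptions without a test.

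**Figure D1:**
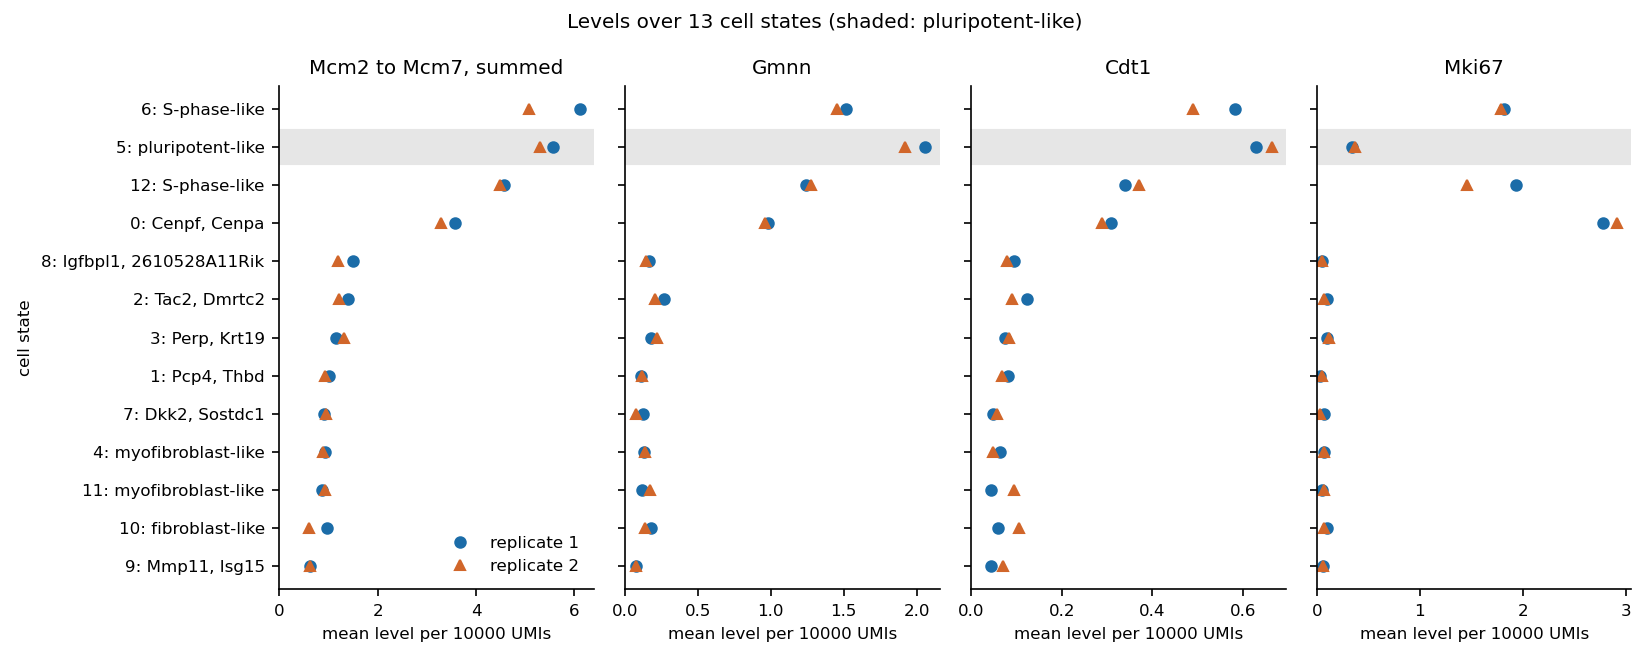
Mean levels of the Mcm2 to Mcm7 sum, Gmnn, Cdt1 and Mki67, in UMIs per 10000 (horizontal axes), over the 13 cell states with at least 30 cells in each library, with a point for each library. The pluripotent-like cells, states 6, 12 and 0 stand above the remaining 9 states, where the Mcm2 to Mcm7 sum stays between 0.597 and 1.51.

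The single genes followed this division, with a different order at the top. Mcm2, Mcm3, Mcm5 and Mcm7, subunits of the helicase ring, together with Mcm10, Cdt1 and Gmnn, had their highest mean in the pluripotent-like cells, and for Mcm2, Mcm10, Cdt1 and Gmnn the libraries did not overlap with the next state. Mcm4 and Mcm6, also subunits of the ring, and the loader Cdc6 had the pluripotent-like cells at rank 3. Gmnn, the inhibitor of Cdt1 (chromosome 13, 24751845 to 24761923, minus strand, GRCm38), is given in full. Its level was 2.06 and 1.92 in the pluripotent-like cells, 1.52 and 1.45 in state 6, 1.24 and 1.27 in state 12, and 0.983 and 0.957 in state 0. None of these neighbours overlapped, and no other of the 13 states exceeded 0.270. The upper 4 states of Cdt1, Mcm4 and Mcm6, in orders of their own, did not overlap either. Mki67 was ordered differently, with the pluripotent-like cells at rank 4 and a mean of 0.356 UMIs per 10000.

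The gate was set at 1 UMI of Mki67. It held 975 cells of replicate 1 and 1160 of replicate 2, and left 2134 and 2754 cells at 0. Mki67-positive cells were deeper, with a median of 20808 and 20423 UMIs against 13609 and 12489, so that a UMI of Mki67 was also easier to draw in them. The summed level of Mcm2 to Mcm7 was 3.999 and 3.84 in Mki67-positive cells and 1.24 and 1.38 in Mki67-zero cells. Gmnn was at 1.09 and 1.13 against 0.240 and 0.308, and Mcm5 at 0.604 and 0.584 against 0.149 and 0.167. Both genes were higher in the gate in both libraries, without overlap.

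Differences were tested with limma on log2(level + 0.1) of the library averages, which understates the change of low genes, for the 7131 genes with a mean of at least 0.1, and p-values were adjusted over all of them. Mcm10 and Cdc6 lay below this mean and are given without the filter. Across the gate, all 8 tested genes were higher in Mki67-positive cells, where 31.1% of all genes tested were called higher. Gmnn differed by 1.70 (SE 0.060, limma adjusted p = 6.3e-07), Mcm5 by 1.43 (SE 0.054, adjusted p = 9.1e-07) and Mcm4, the gene with the smallest difference, by 0.88 (SE 0.050, adjusted p = 7.1e-06). Mki67 itself, which set the gate, differed by 4.37. With no filter on low values, Mcm10 differed by 1.06 (limma adjusted p = 5.4e-04) and Cdc6 by 0.65 (adjusted p = 8.8e-04).

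The gate separated the licensing genes among other cells, whereas no difference was called among pluripotent-like cells. Among other cells, 898 and 957 were Mki67-positive and 2065 and 2566 Mki67-zero, with median depths of 20335 and 19194 against 13449 and 12178 UMIs. Among pluripotent-like cells, 77 and 203 were Mki67-positive and 69 and 188 Mki67-zero, with 31739 and 29165 against 25562 and 22562 UMIs. In other cells the Mcm2 to Mcm7 sum was 1.09 and 1.08 at zero Mki67 and 3.88 and 3.55 in the gate, a 3.42-fold ± 0.182 (SD, n = 2) difference. In pluripotent-like cells it was 5.73 and 5.41 at zero Mki67 and 5.43 and 5.20 in Mki67-positive cells, a ratio of 0.954 ± 0.009 (SD, n = 2).

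**Figure D2:**
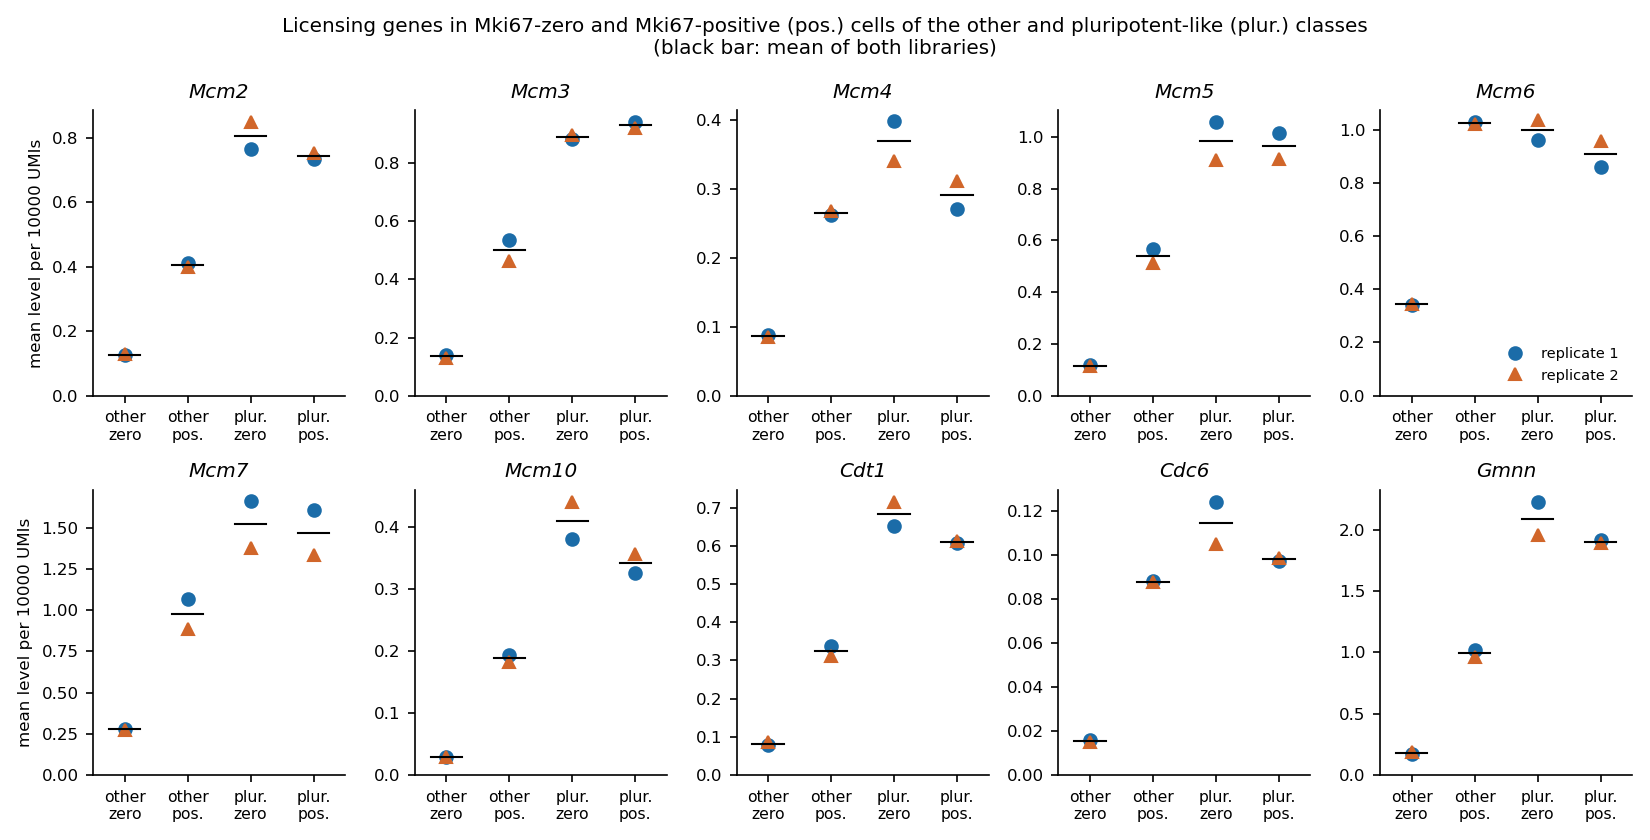
Level of each licensing gene, in UMIs per 10000, in other and pluripotent-like cells at zero and above zero Mki67, with a point for each library and a bar at their mean. Other cells at zero Mki67 are lowest for each of the 10 genes, and the pluripotent-like groups differ far less across the gate than the other cells do.

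Of the helicase subunits, Mcm5 (chromosome 8, 75109569 to 75128439, plus strand) rose most among other cells. Its level was 0.119 and 0.113 at zero Mki67 and 0.568 and 0.514 in the gate, a difference of 1.57 on the log2 scale (SE 0.055, limma adjusted p = 2.9e-10). In pluripotent-like cells it was 1.06 and 0.910 against 1.02 and 0.916, so that the sides of the gate overlapped. Mcm7 (chromosome 5, 138164583 to 138172422, minus strand) was at 0.281 and 0.276 against 1.07 and 0.886 in other cells, and at 1.66 and 1.38 against 1.61 and 1.34 in pluripotent-like cells. Mcm7 overlaps 421 bases of Ap4m1 and 64 bases of Cops6 on the opposite strand and resembles the pseudogene Gm5487, so that some of its UMIs may belong to these genes.

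Mcm3 (chromosome 1, 20802968 to 20820312, minus strand) was at 0.140 and 0.131 at zero Mki67 and 0.536 and 0.464 in the gate among other cells. Among pluripotent-like cells it was at 0.883 and 0.896 against 0.941 and 0.920, the only one of the 8 tested genes with a positive log2 difference there (0.06, 95% interval -0.21 to 0.33). Mcm2 (chromosome 6, 88883474 to 88898780, minus strand) was at 0.125 and 0.129 against 0.413 and 0.401 in other cells, and at 0.765 and 0.849 against 0.735 and 0.754 in pluripotent-like cells. Both genes were more than 3-fold higher in the gate among other cells in each library, and both lay above that level in the pluripotent-like cells on either side of the gate.

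For Mcm4 and Mcm6, Mki67-positive cells of both classes lay close together. Mcm6 (chromosome 1, 128331590 to 128359664, minus strand) was at 0.341 and 0.346 at zero Mki67 and 1.03 and 1.02 in the gate among other cells, and at 0.961 and 1.04 against 0.858 and 0.959 among pluripotent-like cells. Mcm4 (chromosome 16, 15623897 to 15637400, minus strand) was at 0.0884 and 0.0859 against 0.262 and 0.268, and at 0.399 and 0.341 against 0.271 and 0.312. Mcm4 had the largest negative log2 difference among the pluripotent-like cells, -0.26, with a 95% interval of -0.56 to 0.03. A pseudogene resembling Mcm6, Gm15654, is not among the genes of the table.

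The loaders Cdt1 and Cdc6 showed the same contrast. Cdt1 (chromosome 8, 122568015 to 122573554, plus strand) was at 0.0782 and 0.0862 at zero Mki67 and 0.338 and 0.312 in the gate, and Cdc6 (chromosome 11, 98907801 to 98923940, plus strand) was at 0.0158 and 0.0153 against 0.0881 and 0.0876. In pluripotent-like cells Cdt1 was at 0.652 and 0.715 against 0.608 and 0.614, and Cdc6 at 0.124 and 0.105 against 0.0975 and 0.0989. Both loaders were above their Mki67-zero level in the gate among other cells, without overlap, and had lower means in the gate among pluripotent-like cells. Cdt1 lies within the annotated readthrough gene Gm20388, which the table does not list. Cdc6 resembles the pseudogene Gm9430 (95.2% identity over 1528 bases), which is not among the genes of the table either.

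Gmnn and Mcm10 showed the same contrast. Among other cells Gmnn was at 0.174 and 0.188 at zero Mki67 and 1.02 and 0.965 in the gate, a 5.50-fold ± 0.504 (SD, n = 2) difference. Among pluripotent-like cells it was at 2.22 and 1.96 against 1.91 and 1.89, a ratio of 0.912 ± 0.0744 (SD, n = 2). Mcm10 (chromosome 2, 4989714 to 5012791, minus strand), which acts in helicase activation, was at 0.0283 and 0.0291 against 0.194 and 0.182 in other cells and at 0.381 and 0.440 against 0.326 and 0.356 in pluripotent-like cells. Gmnn and Mcm10 without Mki67 were therefore more abundant in pluripotent-like cells than in other cells with Mki67, in both libraries. The same held for each of the remaining licensing genes except Mcm6, which was at 0.961 and 1.04 against 1.03 and 1.02.

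In the limma fit over both classes, all 8 tested genes rose in the gate among other cells, by 0.96 (Mcm4) to 1.96 (Gmnn) on the log2 scale, where 27.7% of all genes were called higher. Among pluripotent-like cells 0 of 8 were called by limma, from -0.26 to 0.06, and 0 passed an unadjusted p of 0.05. The background there was 0.014% of genes, the 1 called gene being Mki67, and 283 of 7131 genes had an unadjusted p under 0.05. The 95% intervals of the 8 differences reached at most 0.33 upwards and -0.56 downwards. The difference across the gate was lower in pluripotent-like than in other cells for all 8 genes, by -1.23 for Mcm4 (SE 0.148, limma adjusted p = 1.5e-04) to -2.09 for Gmnn (SE 0.131, adjusted p = 1.1e-06), against 7.66% of all genes called in that direction. Without the filter on low values, it was -1.37 for Mcm10 (limma adjusted p = 0.0038) and -0.82 for Cdc6 (adjusted p = 0.029).

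**Figure D3:**
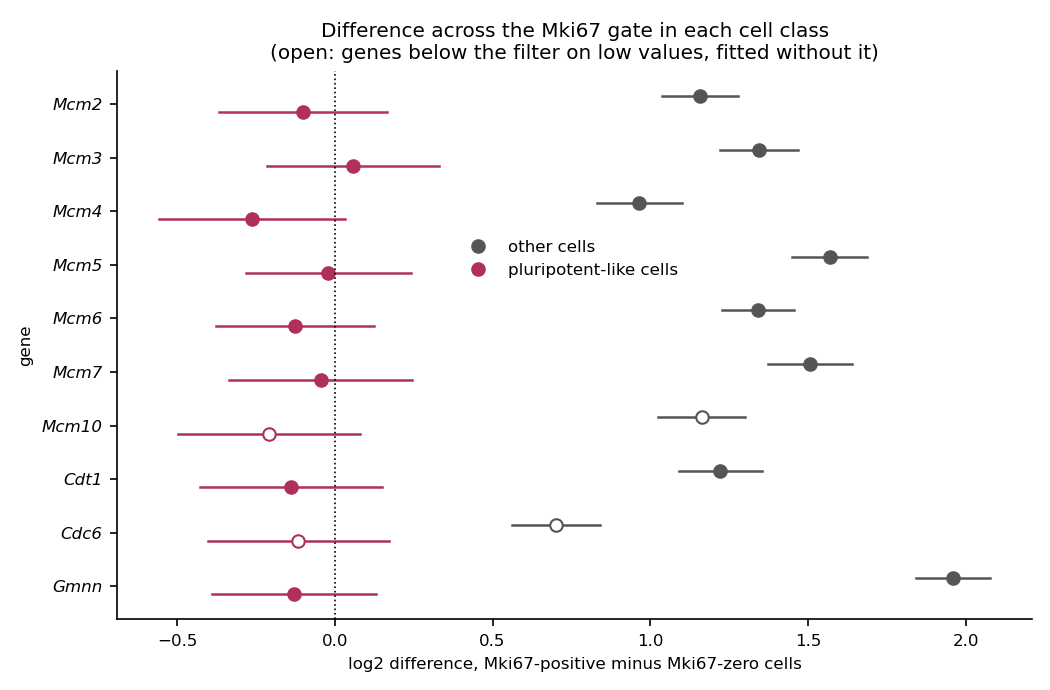
Difference between Mki67-positive and Mki67-zero cells for each licensing gene, as log2 of level + 0.1 with its 95% interval from limma, in other (grey) and in pluripotent-like cells (red); open points are Mcm10 and Cdc6, fitted without the filter on low values. Intervals of the pluripotent-like cells include 0, and those of other cells lie above it.

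The calls of these differences between the classes changed when 3 states were left out. Of the Mki67-positive other cells, 658 of 898 (73.3%) and 751 of 957 (78.5%) lay in states 0, 6 and 12, against 65 of 2065 (3.15%) and 90 of 2566 (3.51%) of the Mki67-zero ones. Without these states, an alternative chosen after seeing the data, the 8 genes were still called higher in the gate among other cells, against 217 of 7057 genes. Their differences were 0.54 to 1.10 on the log2 scale. The difference between classes was then called for Mcm6 alone (-0.95, limma adjusted p = 0.029), and the remaining 7 genes lay between -0.70 and -1.23 (adjusted p = 0.058 to 0.36). All 8 genes kept their direction. In this fit, which had 240 and 206 Mki67-positive other cells, 14 of 7057 genes were called lower. Inside a state, the gate went with different values in different states. In state 6, the 39 and 46 Mki67-zero cells had a Mcm2 to Mcm7 sum of 6.65 and 5.31, against 6.01 and 5.04 in its Mki67-positive cells, and in state 12 the values were 4.26 and 4.47 against 4.62 and 4.49. In state 3, led by Perp and Krt19, the sum was 1.02 and 1.24 at zero Mki67 and 1.84 and 1.81 in the gate. It was also higher in the gate without overlap in states 2, 4, 8 and 10, for example at 2.11 and 1.51 against 0.840 and 0.844 in the myofibroblast-like state 4, with 28 and 16 Mki67-positive cells.

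The share of cells past the gate depended on depth. A UMI of Mki67 was found in 52.7% (exact 95% interval 44.3 to 61.1%) and 51.9% (46.8 to 57.0%) of pluripotent-like cells at 1.05 UMIs per cell in replicate 1, and in 30.3% and 27.2% of other cells. In state 1, led by Pcp4 and Thbd, the share was 3.11% and 5.69%, at a median of 11602 and 10912 UMIs per cell. With each cell thinned to 3000 UMIs, pluripotent-like cells were no longer above, at 10.3% (exact 95% interval 5.87 to 16.4%) and 8.18% (5.67 to 11.4%). Other cells were then at 13.4% (12.2 to 14.7%) and 12.3% (11.2 to 13.4%), and the intervals of the classes overlapped in both libraries. A Poisson draw with the same rate per UMI in each pluripotent-like cell would leave 39.1% and 39.9% of them at 0, and 47.3% and 48.1% were observed. Drawn likewise, 37.1% and 43.6% of other cells would be at 0, and 69.7% and 72.8% were observed. Any of Mki67, Top2a, Cdk1 and Birc5, which are genes of proliferating cells, was found in 99.3% and 97.2% of pluripotent-like cells. Among other cells these shares were 56.4% and 51.6%. After thinning, pluripotent-like cells were at 86.3% and 74.7% against 33.1% and 29.8% of other cells. Intervals cover counting error only, and the part of depth in the gate comparison was not tested beyond the gate at 3000 UMIs given in the closing section.

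Pluripotent-like cells exceeded other cells in most licensing genes even when both had Mki67. Among Mki67-positive cells, 6 of 8 tested genes were called higher by limma, against 27.7% of all genes called higher and 46.7% called lower, with a median over all genes of -0.17. The differences were 0.87 for Gmnn (SE 0.084, limma adjusted p = 1.7e-06), 0.78 for Mcm3, 0.74 for both Cdt1 and Mcm2, 0.73 for Mcm5 and 0.54 for Mcm7 (SE 0.094, adjusted p = 2.2e-04). Mcm4 (0.10, limma adjusted p = 0.364) and Mcm6 (-0.16, adjusted p = 0.097) were not called. With Mki67 gated after thinning to 3000 UMIs, Mcm7 lost its call (0.41, limma adjusted p = 0.0597) and Mcm4 was at -0.16. Relative to the median of all genes, Mcm4 was called higher (0.27, limma adjusted p = 0.0231) and Mcm6 was at 0.012. Without the filter, Mcm10 was higher by 0.61 (limma adjusted p = 0.0014), and Cdc6 was at 0.08 (adjusted p = 0.52). Mki67, whose values set the gate, was lower by 1.54 on the log2 scale, at 0.644 and 0.718 against 2.15 and 2.17 UMIs per 10000.

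Without states 0, 6 and 12, all 8 tested genes were called higher in the Mki67-positive pluripotent-like cells, against 1969 of 7057 genes. Mcm4 was higher by 0.61 and Mcm6 by 0.48 (limma adjusted p = 0.00108). Mcm6 thus changed sign with the states that other cells were drawn from. Among Mki67-zero cells, 8 of 8 genes were called higher, against 31.6% of all genes, from 1.31 for Mcm6 (SE 0.096, limma adjusted p = 1.6e-07) to 2.96 for Gmnn (SE 0.0999, adjusted p = 3.4e-10). As a ratio of levels, Gmnn was 11.6-fold ± 1.68, Mcm5 8.46-fold ± 0.590 and Mcm6 2.91-fold ± 0.125 higher (SD, n = 2).

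The make-up of the helicase transcripts also differed. Mcm6 made up 16.3% and 18.8% of the summed Mcm2 to Mcm7 level in pluripotent-like cells and 28.3% and 30.2% in other cells, a difference of -11.7 ± 0.458 percentage points (SD, n = 2). Its share was 27.5% and 29.9% in state 6, 27.3% and 27.2% in state 12, and 24.4% and 26.2% in state 0. The lower share in pluripotent-like cells therefore held against these 3 states as well. Mcm5 had a share of 18.6% and 17.2% against 13.2% and 12.7% (4.98 ± 0.607 percentage points). Mcm3 differed by 3.75 ± 1.08, Mcm2 by 2.999 ± 0.706, Mcm7 by 1.45 ± 1.46 and Mcm4 by -1.45 ± 0.175 percentage points (SD, n = 2 each). The Mcm7 difference was no larger than its spread between libraries. With 2 libraries, an exact sign-flip test cannot go below p = 0.5, so these are descriptions, and shares are compared between states for a gene and not between genes.

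**Figure D4:**
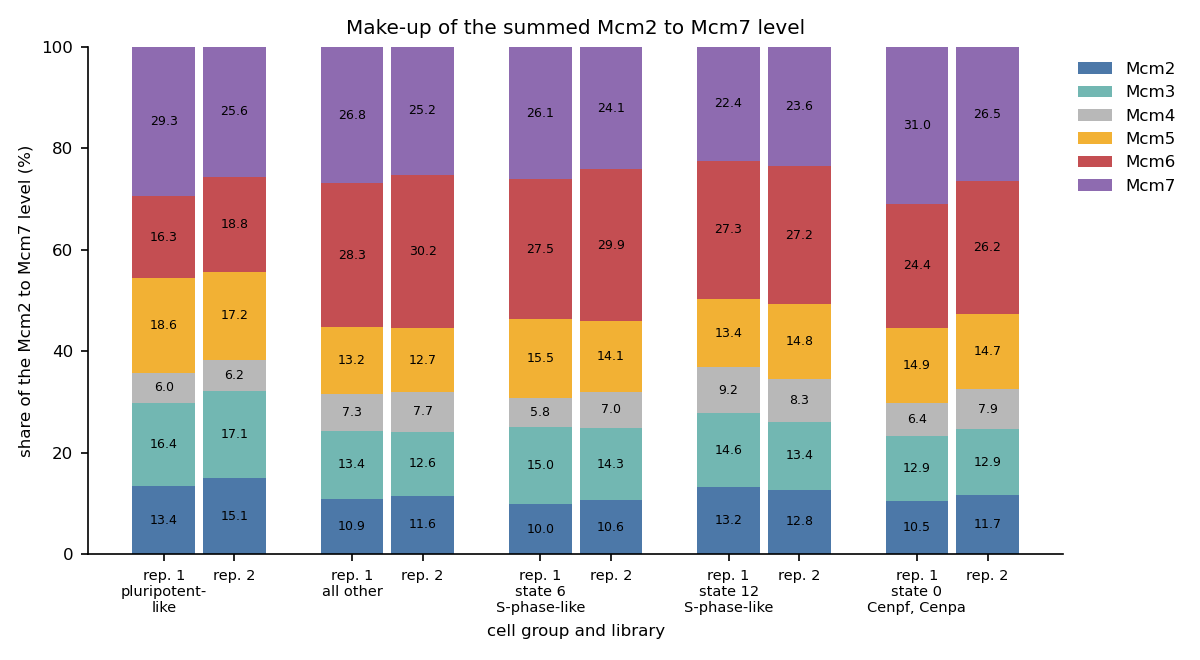
Share of each gene in the summed level of Mcm2 to Mcm7, in percent, for pluripotent-like cells, all other cells and states 6, 12 and 0, as stacked bars, 1 for each library. Mcm6 is at 16.3% and 18.8% in pluripotent-like cells and at 24.4% or more in the other groups shown.

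Mki67-positive cells were next ordered by the log2 ratio of summed S phase markers to summed mitotic markers, lists that hold none of the 10 genes, and divided at the median of each library into S-leaning (487 and 580 cells) and mitotic-leaning cells (488 and 580). Such a division is a range and not a cell type, and 298 and 320 cells (30.6% and 27.6%) lay within 0.5 of the median. Cdc6, the loader, showed the largest ratio, at 0.152 in both libraries of S-leaning cells and 0.0261 and 0.0272 in mitotic-leaning cells. Mcm6 was at 1.38 and 1.30 against 0.650 and 0.715, and Cdt1 at 0.5002 and 0.472 against 0.219 and 0.259. Gmnn was at 1.22 and 1.23 against 0.956 and 1.02, and Mcm7 at 1.27 and 1.06 against 0.957 and 0.874. None of these pairs overlapped between libraries.

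All 8 tested genes were called higher in S-leaning cells by limma, against 12.4% of all genes. The differences were 0.88 for Mcm6 (SE 0.057, limma adjusted p = 8.3e-12), 0.83 for Mcm4, 0.81 for Mcm3, 0.79 for Cdt1, 0.78 for Mcm5, 0.68 for Mcm2, 0.31 for Mcm7 and 0.28 for Gmnn (SE 0.052, adjusted p = 2.6e-04). Mcm7 and Gmnn lost the call when the library was not a term of the fit (limma adjusted p = 0.31 and 0.20). Mki67 fell by 0.85 on the log2 scale. Without states 0, 6 and 12, Mcm6 alone was called (0.44), against 887 of 7057 genes called higher. Gmnn was then at -0.27, Mcm7 at -0.18 and Cdt1 at -0.054. In that setting, 48 of 159 and 132 of 205 mitotic-leaning cells were pluripotent-like, against 29 of 158 and 71 of 204 S-leaning ones. Within pluripotent-like cells the 8 differences were then 0.16 to 0.74, and within other cells 0.13 to 0.67. With all states kept, 8 of 8 genes were called among other cells, against 8.58% of all genes. Without the library term or without array weights 6 of 8 were called, against 133 and 57 of 7131 genes called higher. All these calls were lost without states 0, 6 and 12, where the differences were 0.13 to 0.67 and 25 of 7057 genes were called higher. Among pluripotent-like cells 1 of 8 was called, Mcm5 (0.74, limma adjusted p = 0.0335), against 0.168%. This call was lost without the library term, with a pseudocount of 0.01, with no filter on low values, with at least 2 UMIs of Mki67 and without these states. The difference between the classes was called for 0 of 8 genes by limma, against a background of 0.785%, and the 95% intervals of Cdt1 and Mcm3 did not include 0.

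**Figure D5:**
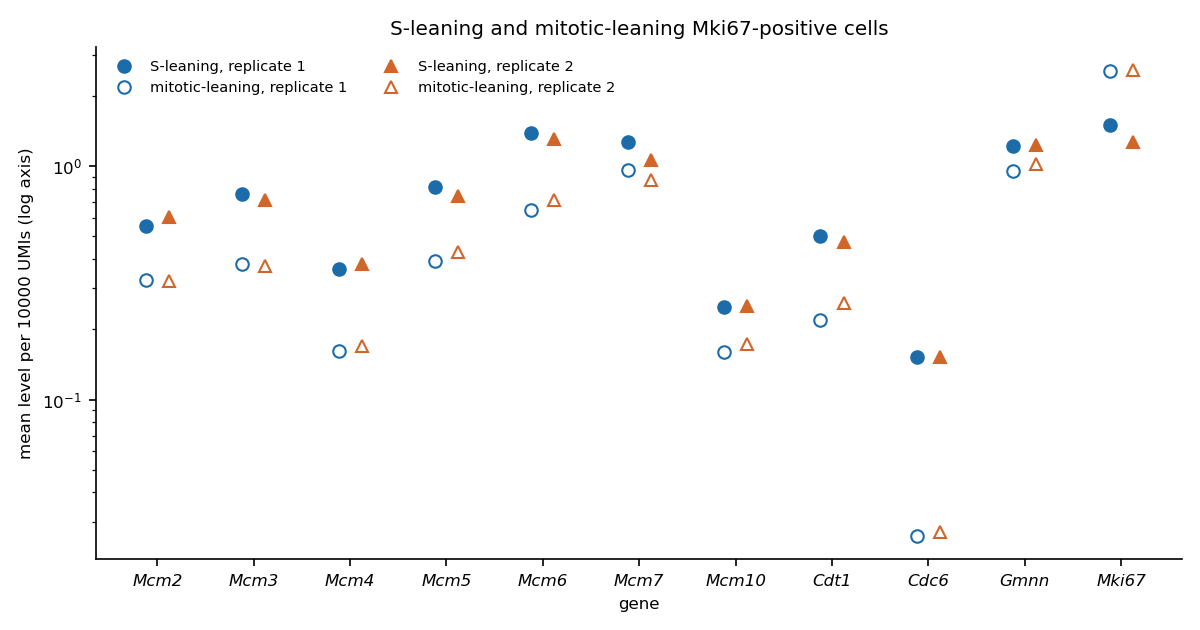
Levels of the licensing genes and Mki67 in S-leaning (filled) and mitotic-leaning (open) Mki67-positive cells, in UMIs per 10000 on a log axis, with a point for each library. Cdc6 is at 0.152 in S-leaning cells and at most 0.0272 in mitotic-leaning cells, and the levels of Gmnn and Mcm7 in the 2 groups lie closest together.

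The ratio of Gmnn to Cdt1, the inhibitor to its target, was 2.44 and 2.60 in S-leaning cells and 4.37 and 3.96 in mitotic-leaning cells. It was 2.22 and 2.18 in Mki67-zero other cells and 3.01 and 3.09 in Mki67-positive other cells. In pluripotent-like cells it was 3.27 and 2.90, against 2.74 and 2.70 in other cells as a whole. Between these last classes the gap was about as wide as the spread between the pluripotent-like libraries. These are ratios of captured transcripts and say nothing of protein, which for both genes is known to be degraded in a phase of the cycle.

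The genes that act beside the licensing factors were given by 2 lists. Of 23 genes of origin recognition and firing, 12 passed the filter, and 10 of them rose in the gate over all cells, against 31.1% of all genes (median of the list 0.65, of all genes 0.00). Among them were Dbf4, the activator of the Cdc7 kinase (1.58), Dtl, which directs Cdt1 to degradation (1.53), and Gins2, a subunit of the active helicase (1.27). Orc3 (0.13) and Orc4 (0.03), subunits of the origin recognition complex, were not called. Of 24 replication fork genes, 20 passed and all 20 rose in the gate (median 1.07), from Lig1, a DNA ligase (1.83), Rfc5, a clamp loader subunit (1.37), and the sliding clamp Pcna (1.33) to the polymerase epsilon subunits Pole3 (0.63) and Pole4 (0.52). Within pluripotent-like cells, where limma called 0.014% of all genes across the gate, neither list had a call.

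Among Mki67-positive cells, the pluripotent-like class had 5 of the 12 origin genes called higher and 1 lower (median 0.17), against 27.7% and 46.7% of all genes. Kat7, a histone acetyltransferase (0.73), Dbf4 (0.62) and the origin recognition subunit Orc6 (0.57) were higher, whereas Gins2 was lower (-0.23, limma adjusted p = 0.035). Of the 20 fork genes 8 were higher and 3 lower (median 0.15), with Rfc5 (0.86), the chromatin assembly subunit Chaf1b (0.68) and the polymerase delta subunit Pold2 (0.61) at one end, and Pole3 (-0.33) and Chaf1a (-0.40), the partner of Chaf1b, at the other. Among Mki67-zero cells all 12 and all 20 were higher, with list medians of 1.11 and 1.30 against -0.15 over all genes. S-leaning cells had 7 origin genes higher, led by Dtl (0.86), and 1 lower, Dbf4 (-0.78), and 16 fork genes higher, led by Chaf1b (0.83), against 12.4% of all genes called higher. The difference across the gate was lower in pluripotent-like cells for 6 of 12 origin genes, including Gins2 (-1.83) and Dtl (-1.75), and for 19 of 20 fork genes, including Lig1 (-2.23), against 7.66% of all genes. Without states 0, 6 and 12, 14 of 7057 genes were called lower in this way, so that these calls cannot all have held.

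Over the 26 averages of 13 states in 2 libraries, the log2 levels of the 10 genes followed each other closely. Pearson correlations of the 45 pairs ran from 0.886 (Mcm7 with Cdc6) to 0.984 (Mcm5 with Gmnn), with a median of 0.954. Each correlated less with Mki67, from 0.809 (Cdt1) to 0.882 (Mcm6). The genes most like the mean of Mcm2 to Mcm7 were Uhrf1, which acts in maintenance DNA methylation (0.990), the primase subunit Prim1 (0.985), the single-strand binding subunit Rpa2 (0.983), Lig1 (0.981) and Dtymk, a kinase of nucleotide synthesis (0.980). For Gmnn they included Uhrf1 (0.991), Rfc5 (0.984), Esco2 and Blm, and for Cdt1 Rfc5 (0.980), Syce2 (0.979) and Chaf1b (0.978). The averages share libraries and depth, and the correlations are descriptions without a p.

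Between the libraries the 10 genes differed little. Over all cells, the log2 ratio of replicate 2 to replicate 1 lay between -0.09 and 0.10, and 0 of 10 genes were at least 2-fold apart. Gmnn, for example, was at 0.506 and 0.551, and Mcm7 at 0.572 and 0.533 UMIs per 10000. The share of cells with a UMI was 37.6% and 38.2% for Gmnn, 46.5% and 46.6% for Mcm6, and 6.63% and 6.95% for Cdc6. With each state given equal weight, the ratios lay between -0.19 and 0.01, while the share of pluripotent-like cells was 4.70% in replicate 1 and 9.99% in replicate 2.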

How the data were processed

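The libraries were made with the 10x Genomics Chromium 3′ kit. Per the labels, the submitters' processing notes name Cell Ranger 2.1.1, the mm10 build and Seurat, and the study required over 1500 and under 6000 genes and less than 9% mitochondrial reads. The authors deposited natural log values, ln(1 + UMIs per 10000 of the cell), from which whole counts were recovered for 100% of values within 0.01. The counts were taken as UMIs. The sources used here do not say whether doublets were removed or strand was used in counting. All columns were assigned to a library by their barcode suffix, and 0 were left unused.

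The genes, lists and tests were chosen with earlier results of these data known. Cells were clustered with scanpy 1.11.5 (2000 variable genes, without the 10 genes, Mki67, the reprogramming factors and sex-linked genes; 30 components, 15 neighbours, Leiden resolution 1). Mean levels per library and group were compared on log2(level + 0.1) by limma 3.58.1 in R 4.3.3 with library as a term, leaving out genes with a mean below 0.1, with Benjamini-Hochberg adjustment over all 7131 and a threshold of 0.05. The fits had 4 averages for the gate and for the division by phase and 8 for the classes. Array weights were added to the latter after simulated data gave false calls. In each fit limma took much of its estimate of the spread from other genes. The degrees of freedom were 7.3 for the gate, 23.2 for the division by phase and 11.7 for the classes. Groups taken from 1 library share that library, so the library term pairs them by construction. Named beside the 10 genes and Mki67 were up to 3 genes with the largest and 2 with the smallest difference of each list, the 5 or 3 most alike genes, and leading genes of states, of which 1 is not reported here. Alternatives were other pseudocounts, filters, gates, clusterings, centring, fits and left-out cells or libraries. Promoters are from RefSeq and gene positions from GENCODE on GRCm38. Scripts were tested on simulated data.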

Additional observations from a re-analysis of the deposited data

Results flagged for a closer look

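The difference across the Mki67 gate differed between pluripotent-like and other cells for each of the 8 tested genes, by the limma test of the difference itself. Pluripotent-like minus other cells, in log2 of level + 0.1, it was -1.26 for Mcm2, -1.29 for Mcm3, -1.23 for Mcm4, -1.59 for Mcm5, -1.47 for Mcm6, -1.55 for Mcm7, -1.36 for Cdt1 and -2.09 for Gmnn. The share of all genes called in this direction was 7.66%. Without states 0, 6 and 12 these 8 values lay between -0.70 and -1.23, and Mcm6 alone (-0.95) kept its call, where 14 of 7057 genes were called lower. A Poisson draw of Mki67 would leave 39.1% and 39.9% of pluripotent-like cells at 0, where 47.3% and 48.1% were found. For other cells it would leave 37.1% and 43.6%, where 69.7% and 72.8% were found. Depth was higher in pluripotent-like cells and in Mki67-positive cells. The parts of such draws and of depth were not tested separately.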

How the results depend on the processing

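Under the alternatives run, 100 values of the counts, levels and shares reported stayed within the tolerance set for them and 10 did not, and for single genes 605 kept their direction and side of the threshold, 17 lost the call, 3 gained it and 6 changed sign. With a filter at a mean of 0.5, 3 of the genes were tested (Mcm6, Mcm7 and Gmnn), and the counts called were 3 across the gate, 2 between classes among Mki67-positive and 3 among Mki67-zero cells, 3 for the difference of differences and 3 for S-leaning cells. Of the 2201 genes tested there, 850, 708, 821, 318 and 422 were called in these directions, in the same order. Without states 0, 6 and 12, chosen after seeing the data, 1 gene was called for the difference of differences, against 14 of 7057 genes called lower. For S-leaning cells 1 was called, against 887 genes called higher, and Mcm7 was at -0.18, Cdt1 at -0.054 and Gmnn at -0.27. Within classes, the 8 differences were then 0.13 to 0.67 (other cells) and 0.16 to 0.74 (pluripotent-like cells). Between classes among Mki67-positive cells, Mcm6 was then at 0.48. With Mki67 gated after thinning to 3000 UMIs, Mcm4 was at -0.16 there, Mcm7 (0.41) and, for the difference of differences, Mcm3 (-0.74) lost their calls. With the median of all genes set to 0, Mcm6 was at 0.012. The cause of these changes was not tested. Without the deepest 5% of cells, the Mcm2 to Mcm7 level of pluripotent-like cells was 5.67 against 5.44. From summed UMIs, the share differences were 4.24 for Mcm5 and -10.7 for Mcm6 percentage points.

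Leaving out each library kept the number of genes with a higher level at 10 across the gate, 9 and 10 between classes among Mki67-positive and Mki67-zero cells and 10 for S-leaning cells, with 10 lower for the difference of differences. The Mcm2 to Mcm7 level ranged from 5.30 to 5.57, and the share differences from 2.50 to 3.499 (Mcm2), 2.98 to 4.51 (Mcm3), -1.57 to -1.33 (Mcm4), 4.55 to 5.41 (Mcm5), -12.1 to -11.4 (Mcm6) and 0.41 to 2.48 (Mcm7). Without the replicate block, 8 of 8 genes were still called across the gate. Over all genes, calls higher and lower without the block were 1128 and 718 against 2218 and 2141 across the gate, 69 and 338 against 208 and 546 for the difference of differences, and 33 and 125 against 882 and 722 for S-leaning cells. The gate on 4 proliferation genes could not be fitted between classes, as a group had 1 cell. Mcm10 and Cdc6 lay below the filter on low values and were tested without it.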

Other observations

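The smaller states stand outside the comparisons of states because a library held fewer than 30 of their cells. State 13, epithelial-like by 9 of 11 markers, held 67 and 4 cells and had a Mcm2 to Mcm7 sum of 2.96 and 3.62 UMIs per 10000 and a Gmnn level of 1.30 and 0.919. In replicate 1 the sum lay below that of state 0 and above those of the 9 low states. State 14, led by Trf and Saa3, held 1 and 41 cells and had a sum of 0.642 in the latter.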
